A study of Mus musculus with 15 samples.

Results

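Endothelial-associated genes were read in enteric neural crest-derived cells (ENCDC), the migrating precursors that build the nervous system of the bowel. The set was 10 genes chosen by name for receptors and surface or secreted proteins known from blood vessel endothelium: Kdr, Flt1, Eng, Egfl7, Plvap, Cdh5, Pecam1, Tek, Tie1 and Esam. Of these, 9 had a row of counts among 17090 genes, and Tek was not analysed here. ENCDC were sorted by fluorescence from single embryonic organs in 15 libraries of mixed strain background. The 4 control libraries from E11.5 stomach were Wnt1Cre; ROSA26TdTomato, and the 4 RarαDN libraries of that age carried RarαDNLoxP/+ in addition. The 4 control libraries from E13.5 colon carried RETCreERT2 with the EYFPTandem reporter, the 3 RarαDN libraries also had RarαDNLoxP/+, and all 7 came from mice given tamoxifen at E10.5. RarαDN is a dominant negative retinoic acid receptor that blocks all 3 receptor subtypes, and the controls had the same Cre and reporter without it. Wnt1Cre acts in most neural crest derivatives and in part of the central nervous system, and RETCreERT2 acts in any cell that uses the Ret promoter when tamoxifen is given. The sorted cells were therefore labelled by lineage and not by a present marker. By antibody staining, the study found CD31 (PECAM1) and an erythroid marker on some RETCreERT2-lineage cells of the colon. Because age, organ, Cre, reporter and tamoxifen changed together, they cannot be told apart in any comparison of the E11.5 with the E13.5 libraries.

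Endothelial cells line blood vessels and respond to vascular endothelial growth factor (VEGF) through the receptor tyrosine kinases encoded by Kdr and Flt1. KDR carries most of the growth signal, while FLT1 binds VEGF tightly and mainly limits it. TIE1 and TEK form the angiopoietin receptor system, endoglin (Eng) is a co-receptor for TGFβ-family ligands, and EGFL7 is a secreted matrix protein of vessels. PLVAP forms the diaphragms of endothelial pores, and VE-cadherin (Cdh5), PECAM1 (CD31) and ESAM are adhesion molecules of endothelial junctions. Several of these proteins are also known outside endothelium: KDR is found on some neural cells, endoglin on macrophages and mesenchymal cells, and PECAM1 and ESAM on platelets.

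Kdr and Eng changed in opposite directions at E11.5, so the promoter windows of both are shown. Each runs from 250 bases before to 50 bases after the RefSeq start site on GRCm38.p6, and capitals mark matches on either strand to the ETS-family cores CCGGAA and AGGAAG, a family of factors known to act at many endothelial promoters. The Kdr window lies at chr5:75978406-75978705 on the minus strand and the Eng window at chr2:32646345-32646644 on the plus strand.
Kdr: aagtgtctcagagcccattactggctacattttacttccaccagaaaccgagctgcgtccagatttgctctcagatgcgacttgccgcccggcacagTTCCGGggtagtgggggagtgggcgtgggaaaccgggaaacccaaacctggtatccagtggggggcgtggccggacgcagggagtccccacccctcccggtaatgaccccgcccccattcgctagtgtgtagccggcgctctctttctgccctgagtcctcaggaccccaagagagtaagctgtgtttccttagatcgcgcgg
Eng: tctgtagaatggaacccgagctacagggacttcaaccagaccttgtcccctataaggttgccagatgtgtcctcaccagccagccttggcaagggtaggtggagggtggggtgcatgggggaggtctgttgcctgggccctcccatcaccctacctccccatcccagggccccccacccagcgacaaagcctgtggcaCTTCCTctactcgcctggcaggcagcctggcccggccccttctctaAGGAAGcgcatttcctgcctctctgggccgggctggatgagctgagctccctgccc
The Kdr window had 1 match, to CCGGAA on the reverse strand at -153 from the start site, and the Eng window had 2 matches to AGGAAG, at -52 on the reverse and at -6 on the forward strand. Among 32851 promoter windows of the same length, 14.9% had CCGGAA and 35.4% had AGGAAG on either strand. Neither window had the nuclear receptor half-site AGGTCA, which 16.3% of windows had, nor its direct repeat with 5 bases between, which 0.00913% had. RefSeq windows were found for 6 of the 10 genes, and a match or its absence is a description of these letters only. Kdr spans 75932827 to 75978458 on chromosome 5 and Eng spans 32646595 to 32682669 on chromosome 2 of GRCm38, the build of the annotation used here.

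Depth ranged from 6065030 to 12121300 counts per library (median 8828510), and 3 counts, taken as the limit that a count of 0 allows, corresponded to 0.242 to 0.477 CPM (counts relative to library size, scaled by TMM). Reads had no molecular identifiers, so these limits cover counting error only. Genes with a count above 0 numbered 14559 to 14870 in E11.5 control and 12510 to 13221 in E11.5 RarαDN libraries. At E13.5 they numbered 12354 to 13050 in control and 13536 to 13900 in RarαDN libraries. The groups did not overlap at either age, and the part of this difference in the results below was not tested. The neural crest markers were present in every library, with none of 10 at 0 in any group. Hemoglobin genes reached 754 CPM in E13.5 control library 2 and 3686 CPM in E13.5 control library 3, against at most 74.5 CPM in the other 13 libraries. Hba-a1 and Hba-a2 had the same counts in all 15 libraries, as did Hbb-b1 and Hbb-b2. These sums may therefore hold the same reads more than once. Rara itself did not pass the test at E11.5 (log2 fold change 0.13, edgeR adjusted p = 0.824) or at E13.5 (-0.11, adjusted p = 0.857), and gene counts do not separate the normal from the truncated transcript.

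VE-cadherin, the adhesion molecule that most closely defines endothelium, was at or near 0 in every library. Cdh5 had 5 counts in E13.5 control library 3 and 0 in the other 14 libraries. Tie1 had 12 counts in E11.5 RarαDN library 4 and 0 in the other 14. Esam was above 0 in 5 of 15 libraries, with 45 counts in E11.5 RarαDN library 2, 10 in E11.5 control library 4 and 2 or fewer in the other 3. None of these 3 genes passed the filter on low counts in either age comparison. At this depth the libraries thus held counts of Kdr, Egfl7, Plvap, Eng or Pecam1 with almost none from Cdh5, Tie1 and Esam. The plot of CPM by library shows all 9 genes.

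**Figure D1:**
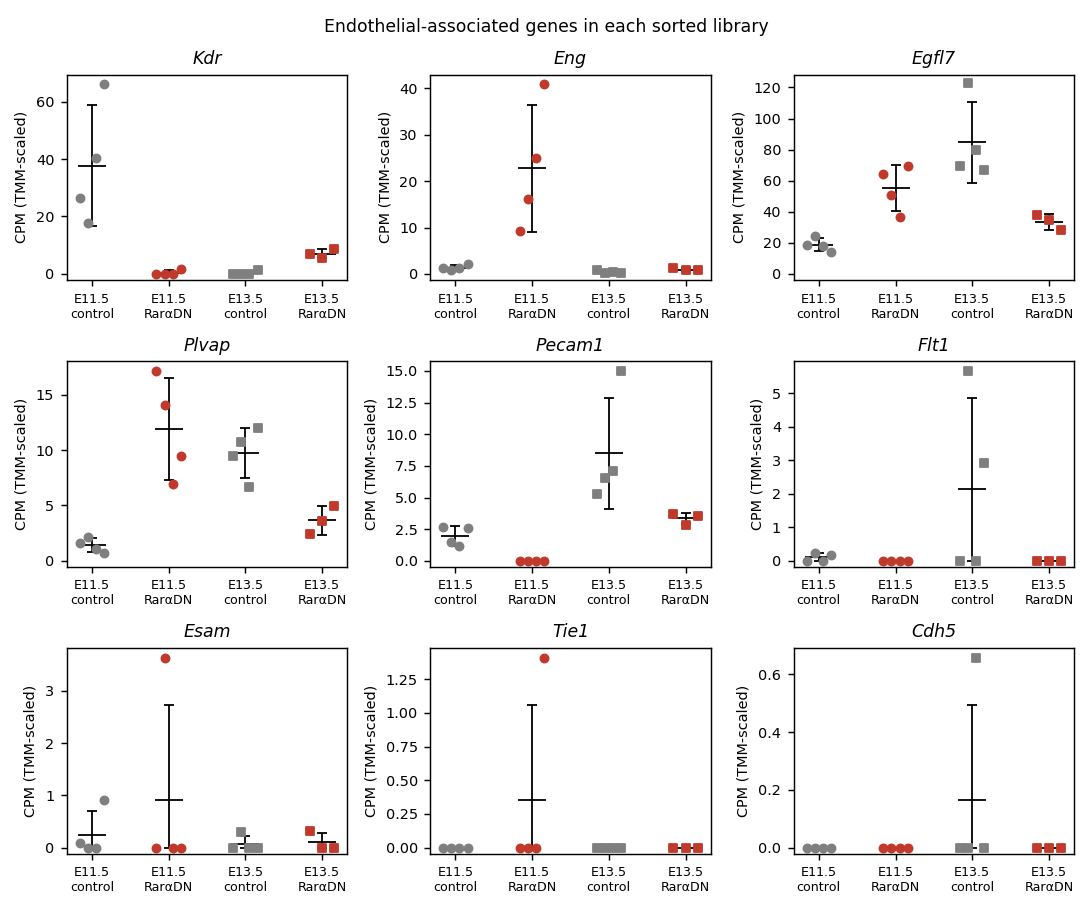
TMM-scaled CPM (vertical axis, linear, a separate scale for each gene) of the 9 genes in each of 15 libraries, by group. Points are libraries, horizontal bars are group means and whiskers are 1 SD, cut off at 0 where they would pass below it. Kdr is high in the 4 E11.5 control libraries, Eng in the 4 E11.5 RarαDN libraries, and Cdh5 and Tie1 are above 0 in 1 library each.

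In E11.5 stomach ENCDC, Kdr, the main VEGF receptor, fell almost to 0. The 4 control libraries held 289, 158, 350 and 721 Kdr counts, and the 4 RarαDN libraries held 1, 0, 0 and 14. Every control library was above every RarαDN library, at a mean of 37.7 ± 21.1 CPM (SD, n = 4) against 0.434 ± 0.807 CPM (n = 4). The log2 fold change was -6.45 (SE 1.10, edgeR adjusted p = 0.00683). RarαDN library 4 supplied nearly all the remaining counts, and without it the log2 fold change was -9.67 (adjusted p = 0.00113). The call held in each of the 8 fits that left out 1 library, with adjusted p from 0.00113 to 0.0312.

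Flt1, the other VEGF receptor of the set, had 0, 2, 0 and 2 counts in the E11.5 controls and 0 in all 4 RarαDN libraries, so no difference was detectable at this depth. The E11.5 control libraries thus held 158 to 721 counts of Kdr with at most 2 of Flt1. Eng, the TGFβ co-receptor, went the other way from Kdr. Its counts were 15, 7, 11 and 23 in the controls and 98, 199, 163 and 349 in the RarαDN libraries, which did not overlap. Eng rose from 1.38 ± 0.544 CPM to 22.8 ± 13.7 CPM (n = 4 each), a log2 fold change of 4.02 (SE 0.60, edgeR adjusted p = 0.00358). Without any 1 of the 8 libraries its log2 fold change was between 3.57 and 4.34, and each of these fits called it. A stretch of 61 bases of Eng overlaps Fpgs on the other strand, and no step named in the sources keeps strand.

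The secreted protein gene Egfl7 and the pore diaphragm gene Plvap also rose at E11.5. Egfl7 had 208, 218, 154 and 157 counts in the controls and 688, 628, 241 and 593 in the RarαDN libraries, or 18.9 ± 4.28 CPM against 55.5 ± 14.7 CPM. Its log2 fold change was 1.55 (SE 0.30, edgeR adjusted p = 0.0128). Plvap had 18, 19, 9 and 8 counts in the controls and 183, 174, 45 and 81 in the RarαDN libraries, or 1.39 ± 0.632 CPM against 11.9 ± 4.59 CPM. Its log2 fold change was 3.09 (SE 0.63, edgeR adjusted p = 0.0150). For both genes all RarαDN libraries were above all controls. Both calls were lost without control library 1, 3 or 4, where the adjusted p was 0.0557, 0.0574 and 0.0538 for Egfl7 and 0.0598, 0.0708 and 0.0660 for Plvap. Egfl7 contains the microRNA genes Mir126a and Mir126b and overlaps Agpat2 on the other strand by 64 bases.

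Among the junction molecules, Pecam1 fell at E11.5. Its counts were 29, 13, 10 and 28 in the controls and 0 in all 4 RarαDN libraries, so Pecam1 was at least 25.8-fold lower when set against 3 counts over the RarαDN group (edgeR adjusted p = 0.0236). The control level was low, at 1.96 ± 0.758 CPM (n = 4). Leaving out control library 1, 2, 3 or 4 ended the call, with adjusted p of 0.104, 0.0567, 0.0746 and 0.105. Pecam1 thus went with Kdr, and against Eng, Egfl7 and Plvap, in the same libraries.

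Of the 9 genes, 5 were tested at E11.5 and all 5 were called, 3 higher and 2 lower, where 6% of 12427 genes were called in all (3.07% higher and 2.93% lower). The 5 were also the genes whose groups did not overlap, which held for 15.7% of all genes tested, 6.71% with RarαDN above and 8.96% with RarαDN below. Genes that are near 0 in 1 group pass the filter on low counts through the other group, so the 5 tested are not a sample of the 9. Over the 9 genes together, the summed level was 47.2 to 87.0 CPM in control and 68.8 to 123 CPM in RarαDN libraries, and these ranges overlapped. The make-up of that sum differed more than its size. Kdr made up 37.9% to 76.0% of the counts of the 9 genes in the 4 controls and at most 1.33% in the RarαDN libraries, while Eng went from at most 2.68% to between 10.1% and 36.3%.

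**Figure D2:**
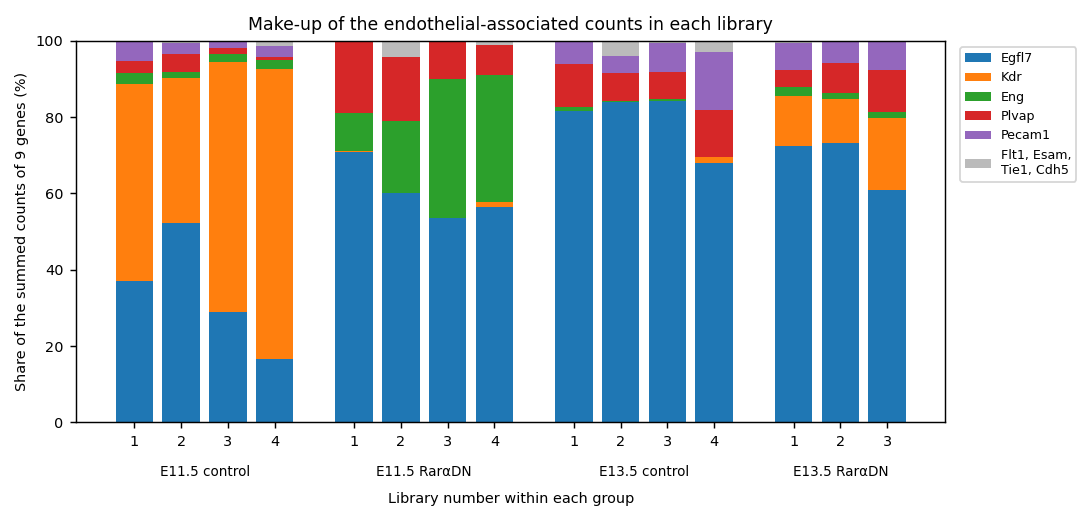
Share of the summed counts of the 9 genes (vertical axis, percent) in each of 15 libraries (horizontal axis, library number within each group), coloured by gene. Kdr takes 37.9% to 76.0% in E11.5 control libraries, at most 1.33% in E11.5 RarαDN libraries, at most 1.37% in E13.5 control libraries and 11.7% to 18.8% in E13.5 RarαDN libraries.

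In E13.5 colon ENCDC, Kdr stood in the opposite order, at a lower level. The 4 control libraries held 1, 0, 0 and 11 counts and the 3 RarαDN libraries held 43, 49 and 92. Every RarαDN library was above every control, at 6.99 ± 1.56 CPM (n = 3) against 0.361 ± 0.655 CPM (n = 4). The log2 fold change was 4.20 (SE 1.41), which did not pass the test (edgeR adjusted p = 0.0982). Without control library 4, which had 11 of the 12 control counts, it was 7.0 and passed (adjusted p = 0.0152). DESeq2 and limma-voom also called Kdr higher, with adjusted p of 0.0183 and 0.0415, and over all other settings the adjusted p ran from 0.0183 to 0.177. Leaving out any other library gave 0.124 to 0.268.

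Egfl7 fell at E13.5. Its counts were 674, 824, 608 and 548 in the controls and 238, 307 and 299 in the RarαDN libraries, or 84.7 ± 26.1 CPM against 33.5 ± 5.02 CPM. All RarαDN libraries were below all controls, and the log2 fold change was -1.34 (SE 0.27, edgeR adjusted p = 0.0162). The call was lost without RarαDN library 1, 2 or 3 (adjusted p = 0.0720, 0.0712 and 0.0719) and without both hemoglobin-rich controls (log2 fold change -1.01, adjusted p = 0.0811), of which library 2 had the highest Egfl7 level of all 15 libraries, 123 CPM.

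Plvap and Pecam1 were at lower CPM in every E13.5 RarαDN library than in every control, but neither passed the test. Plvap had 92, 72, 51 and 98 counts in the controls and 15, 32 and 53 in the RarαDN libraries, or 9.71 ± 2.25 CPM against 3.65 ± 1.29 CPM, a log2 fold change of -1.40 (SE 0.59, edgeR adjusted p = 0.182). Pecam1 had 51, 44, 54 and 123 counts in the controls and 23, 25 and 38 in the RarαDN libraries, or 8.48 ± 4.42 CPM against 3.34 ± 0.464 CPM, a log2 fold change of -1.34 (SE 0.66, edgeR adjusted p = 0.256). In raw counts Plvap overlapped, since RarαDN library 3 held 53 and control library 3 held 51, and after scaling these were 4.96 and 6.71 CPM.

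The remaining receptors were near 0 at E13.5. Eng had 9, 1, 4 and 1 counts in the controls and 8, 7 and 8 in the RarαDN libraries, or 0.431 ± 0.378 CPM against 0.936 ± 0.292 CPM, and the groups overlapped. Flt1 had 38 counts in control library 2 and 24 in control library 4, and 0 in the other 5 libraries. Both genes failed the filter on low counts, and in a fit with no such filter neither passed (edgeR adjusted p = 0.745 for Eng and 0.187 for Flt1). Flt1 was thus found in 2 of 4 controls only, and not in the libraries that held most Kdr.

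Of the 9 genes, 4 were tested at E13.5, where 8.33% of 12085 genes were called in all, 2.78% higher and 5.55% lower. Egfl7 was the 1 gene called, lower, and 0 were called higher by edgeR, against 1 (Kdr) with an unadjusted p under 0.05, 1 by DESeq2 and 1 by limma-voom. All 4 had groups that did not overlap, 1 above and 3 below, which held for 26% of all genes tested, 12.7% above and 13.3% below. The summed level of the 9 genes was 85.0 to 146 CPM in controls and 45.9 to 52.4 CPM in RarαDN libraries, with no overlap, and Egfl7 supplied 61.0% to 84.2% of the counts in these 7 libraries.

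**Figure D3:**
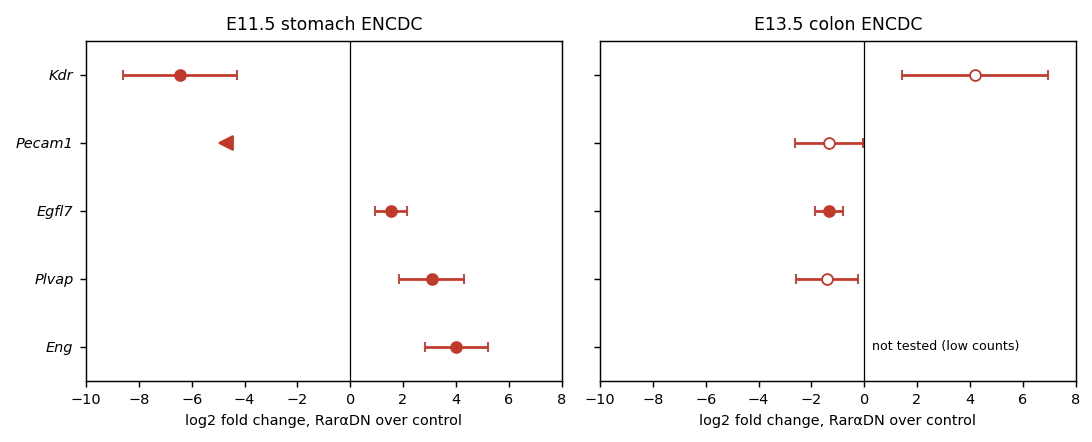
Log2 fold change of RarαDN over control (horizontal axis) for 5 genes at E11.5 (left) and E13.5 (right). Circles are edgeR estimates with 95% intervals (1.96 SE, unadjusted for the number of genes), filled where the adjusted p was under 0.05. The triangle is the Pecam1 decrease set against 3 counts, a limit for counting error only. Kdr is at -6.45 and 4.20, Egfl7 at 1.55 and -1.34 and Plvap at 3.09 and -1.40.

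The effect of RarαDN differed between the 2 ages for 4 of the 5 genes tested in 1 fit of all 4 groups, where 14.5% of 13412 genes differed, 7.34% with the E13.5 effect higher and 7.20% with it lower. The difference, E13.5 minus E11.5, was 10.58 on the log2 scale for Kdr (SE 1.74, edgeR adjusted p = 0.00103). It was -2.95 for Egfl7 (SE 0.42, adjusted p = 0.000323) and -4.54 for Plvap (SE 0.86, adjusted p = 0.00267). For Pecam1 it was 5.71 (adjusted p = 0.00970), a size that depends on how the 4 libraries at 0 are fitted. For Eng it was -3.03 (SE 1.07) and was not called (adjusted p = 0.0667), although it passed without E11.5 RarαDN library 1 (0.0441), without E13.5 control library 4 (0.0385) and with DESeq2 (0.0203). The Kdr difference was 13.8 without E11.5 RarαDN library 4 and 13.4 without E13.5 control library 4, and it was called in every fit that left out 1 library. Kdr was thus the gene lowered at E11.5 and at the higher level with RarαDN at E13.5, and Egfl7 and Plvap had the reverse order.

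Between the control groups, colon ENCDC at E13.5 differed from stomach ENCDC at E11.5 in 4 of 5 genes tested, where 28.5% of 13412 genes did (14.2% higher and 14.4% lower in colon). Kdr was lower in colon (log2 fold change -6.46, SE 1.28, edgeR adjusted p = 0.00151). Egfl7 was higher (2.35, SE 0.29, adjusted p = 4.79e-05), as was Plvap (2.97, SE 0.59, adjusted p = 0.00152). Pecam1 was higher too (2.29, SE 0.76, adjusted p = 0.0368), a call that was lost in 9 of 15 fits that left out 1 library (adjusted p up to 0.113), namely those without any 1 of the 4 E11.5 controls, E13.5 control library 3 or 4, or any 1 of the 3 E13.5 RarαDN libraries. Eng did not pass (-1.44, SE 0.72, adjusted p = 0.145). The Kdr value was -9.27 without E13.5 control library 4. This comparison shares its control libraries with both age comparisons, so its values are not independent of theirs.

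Per kilobase of transcript, Egfl7 had the highest level of the 9 genes in all 4 groups. In the E11.5 controls it was at 16.3 ± 3.68 CPM per kb, above Kdr at 6.36 ± 3.56, and Kdr was above Plvap at 0.70 ± 0.318, with no overlap between the libraries of these neighbours. In the E11.5 RarαDN libraries Eng (6.70 ± 4.03 CPM per kb) and Plvap (5.99 ± 2.31) followed Egfl7 (47.7 ± 12.6) and overlapped each other. In the E13.5 controls Plvap (4.89 ± 1.13 CPM per kb) and Pecam1 (2.58 ± 1.35) came next after Egfl7 (72.9 ± 22.4), again with overlap between them. In the E13.5 RarαDN libraries Plvap (1.84 ± 0.648 CPM per kb), Kdr (1.18 ± 0.263) and Pecam1 (1.02 ± 0.141) followed Egfl7 (28.8 ± 4.32), with overlap between Plvap and Kdr and between Kdr and Pecam1.

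Ligands, co-receptors and signalling partners of KDR were read as a list. Of 16 VEGF pathway genes 15 had a row and 11 were tested at each age, with a median log2 fold change of -0.11 at E11.5 against -0.05 over all genes tested. None was called at E11.5 by edgeR, against 3 higher and 2 lower with an unadjusted p under 0.05, 1 higher and 1 lower by DESeq2, and 0 higher and 2 lower by limma-voom. Nrp1, a co-receptor of KDR for VEGF, averaged 346 ± 67.0 CPM in the E11.5 controls against 185 ± 83.0 CPM with RarαDN (-0.90, edgeR adjusted p = 0.126). At E13.5 Nrp1 rose from 174 ± 17.5 CPM to 281 ± 40.4 CPM (0.69, adjusted p = 0.0216) and was the only gene of the 11 called there, beside a list median of -0.22 and 0.06 over all genes tested. Of 8 genes tested in the angiopoietin and Tie list at E11.5, 1 was called. Angpt2, a ligand of TEK, fell from 49.9 ± 8.48 to 14.1 ± 6.96 CPM (-1.82, adjusted p = 0.0288), beside a list median of 0.14.

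Genes that act with endoglin also split at E11.5, with 1 of 13 tested higher and 2 lower and a list median of -0.23. Acvrl1, the type I receptor (ALK1) that endoglin assists in endothelium, rose by 1.74 on the log2 scale, to 33.5 ± 14.5 CPM with RarαDN (edgeR adjusted p = 0.0199). Tgfbr1, a TGFβ type I receptor, fell (-1.37, adjusted p = 0.0363), as did the ligand gene Tgfb2 (-0.99, adjusted p = 0.0388). Among junction partners, Jam2, an adhesion molecule, was the 1 of 13 called at E11.5 and fell from 24.5 ± 7.76 to 3.20 ± 1.29 CPM (-2.92, adjusted p = 0.00608), beside a list median of -0.12. At E13.5 Ctnnb1 and Ctnna1, the β- and α-catenins that bind cadherin tails in most cell types, rose (0.71 and 0.66, adjusted p = 0.0288 and 0.0390), beside a list median of 0.39. Of the transcription factors used by endothelium, Foxc1 rose at E11.5 (4.46, adjusted p = 0.0124), 1 of 11 tested with a list median of 0.56. At E13.5 Ets1 (1.04, adjusted p = 0.0183) and Mef2c (1.72, adjusted p = 0.0379) rose, 2 of 9 tested with a list median of 0.89. Use in endothelium is not the only role of these factors, and the study describes ETS1 as raising expression of the neural crest gene Sox10.

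Of a list of 29 other endothelial markers 20 had a row, and 0 of these 20 were at 0 in all 15 libraries. At E11.5, 2 of 10 tested rose and 1 fell, with a median log2 fold change of 0.64. Ramp2, a partner of the adrenomedullin receptor of vessels, had 7, 24, 30 and 25 counts in the controls and 163, 152, 112 and 197 in the RarαDN libraries (log2 fold change 2.90, edgeR adjusted p = 0.0148), and Tmem204 rose as well (3.81, adjusted p = 0.00397). Cldn5, the claudin of endothelial tight junctions, had 88, 138, 57 and 41 counts in the controls and 0 in all 4 RarαDN libraries (adjusted p = 0.00615), as Pecam1 did. At E13.5, Clec14a fell from 19.7 ± 5.67 to 3.89 ± 2.61 CPM (-2.35, adjusted p = 0.0400) and Ecscr from 8.49 ± 1.76 to 1.07 ± 0.673 CPM (-2.97, adjusted p = 0.0471), 2 of 8 tested with a list median of -1.28. The summed level of the 20 genes was 35.1 to 56.8 CPM in E11.5 controls and 73.7 to 76.5 CPM in RarαDN libraries, and 46.5 to 91.9 CPM in E13.5 controls and 25.2 to 30.7 CPM in RarαDN libraries. In the E11.5 RarαDN libraries 6 of the 20 were at 0 in all 4 libraries, and 1 was in the E11.5 controls. At E13.5, 6 were at 0 in all controls and 4 in all RarαDN libraries. Genes of any kind above 0 were also fewer in the E11.5 RarαDN libraries (12510 to 13221 against 14559 to 14870), so these counts are not particular to this list. In bulk libraries such as these, fewer cells of a type and less RNA per cell cannot be told apart.

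Some markers of other cell types were also higher in the E11.5 RarαDN group, as Eng, Egfl7 and Plvap were, and their part in those results was not tested. The 12 leukocyte and macrophage markers summed to 43.4 to 67.3 CPM in the controls and to 73.4 to 319 CPM in the RarαDN libraries, and 2 of 9 tested rose. C1qb, a complement gene of macrophages, rose by 4.94 on the log2 scale, with 1.67 ± 1.86 CPM in control and 50.9 ± 27.5 CPM with RarαDN (edgeR adjusted p = 0.0124), and C1qa rose too (5.13, adjusted p = 0.0257). The 9 pericyte and vascular smooth muscle markers summed to 15.4 to 41.6 CPM in the controls and to 97.9 to 254 CPM in the RarαDN libraries, with 1 of 6 tested higher, Tagln (2.66 ± 0.879 to 74.5 ± 47.8 CPM, 4.80, adjusted p = 0.000406). Other genes of this list overlapped between the groups. Pdgfrb had 41, 8, 16 and 45 counts in the controls and 57, 10, 10 and 3 with RarαDN. Acta2 had 33, 32, 2 and 8 counts in the controls and 96, 411, 2 and 5 with RarαDN. The 5 platelet genes with a row summed to 0.153 to 9.61 CPM in RarαDN and 1.10 to 3.28 CPM in control libraries. The 10 neural crest markers had 3 called lower at E11.5, among them Elavl4 of early neurons (-2.94, adjusted p = 0.000252), in the same libraries in which Kdr fell.

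**Figure D4:**
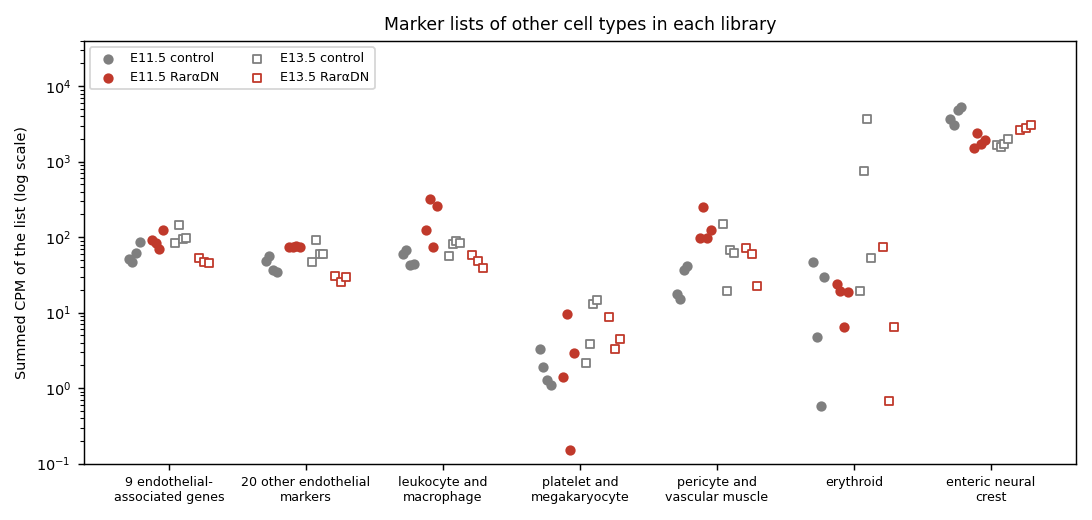
Summed TMM-scaled CPM of each marker list (vertical axis, log scale) in each of 15 libraries. Filled circles are E11.5 and open squares E13.5 libraries, grey for control and red for RarαDN. The sums of the leukocyte and the pericyte lists, though not every gene in them, are higher in every E11.5 RarαDN library than in every E11.5 control. In the erythroid list 2 E13.5 control libraries stand out.

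At E13.5 some markers of other cell types were also lower in the RarαDN group, as Egfl7 was, and their part in that result was not tested. Of the 10 erythroid markers 1 of 6 tested fell, Hba-x, an embryonic globin gene, with 24, 162, 49 and 18 counts in the controls and 0 in all 3 RarαDN libraries (edgeR adjusted p = 0.0216). Leukocyte and macrophage markers summed to 56.6 to 89.9 CPM in controls and 38.9 to 58.4 CPM in RarαDN libraries, which overlapped, with 1 of 2 tested lower (Coro1a, log2 fold change -1.06, adjusted p = 0.0444). Most of this sum came from Coro1a and Laptm5, at 143 to 521 counts in each E13.5 library. No other gene of the list had more than 17 counts there, and Ptprc and Aif1 were at 0 in every E13.5 library. Pericyte markers overlapped, at 19.5 to 150.2 CPM against 22.8 to 71.5 CPM, as did platelet genes, at 2.16 to 14.9 CPM against 3.26 to 8.75 CPM. The 7 mesenchyme genes with a row summed to 69.7 to 165 CPM in controls and 26.3 to 38.2 CPM in RarαDN libraries, with no overlap. Col1a2, a collagen, fell (-3.03, adjusted p = 0.00824), 1 of 3 tested. The genes of this list did not all go the same way. Col1a1 had 31, 11, 19 and 54 counts in the controls and 3, 11 and 14 with RarαDN. Col3a1 had 255, 71, 65 and 107 against 146, 152 and 230 (0.49, adjusted p = 0.567). Pdgfra had 0, 0, 0 and 1 against 11, 5 and 15. Of the 10 neural crest markers 2 rose, Ednrb (1.62, adjusted p = 0.00472) and Gfra1 (0.67, adjusted p = 0.0248), in the libraries in which Kdr was higher and Egfl7 lower.

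The genes most like Kdr across the 15 libraries, by the root mean square difference of centred log2 CPM over 13407 genes, were Gm1568 (1.34), Dmrta1 (1.41), 9130019O22Rik (1.43), Sphkap (1.45) and Fam5b (1.49), where the median gene was at 2.97. Dmrta1, for example, was at 3.91 ± 1.16 CPM in E11.5 controls, 0 in E11.5 RarαDN libraries, 0.490 ± 0.895 CPM in E13.5 controls and 2.92 ± 0.580 CPM in E13.5 RarαDN libraries. For Eng they were Tspan10 (0.722), Gjb2 (0.778), C5ar1 (0.793), Gpr143 (0.843) and Gja3 (0.853), with the median gene at 2.17. Gja3, a connexin, was at 0.0914 ± 0.106 CPM in E11.5 controls, 9.87 ± 2.96 CPM in E11.5 RarαDN libraries and 0 in both E13.5 groups. The endothelial-associated genes of the set were left out before this ranking, so it could not name them. None of these 10 genes is in the list of other endothelial markers. Only 14 markers of that list passed the filter over all 15 libraries, beside 13407 genes ranked, so this absence is not read as a result.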

How the data were processed

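RNA of fluorescent ENCDC sorted from single E11.5 stomachs and E13.5 colons was amplified with SMART, made into Nextera XT libraries and sequenced in 2 single-end runs per library, which the authors combined. Per the study's methods, the authors removed repeat and ribosomal reads, used RUM to map the rest, and the deposited counts are whole numbers per transcript. For the genome build, the annotation and the mapper version nothing is given in the sources used here. Besides the counts, the deposited table has quantile-normalized log2 values, other annotation such as the mark of a best transcript, and the authors' own comparisons (log2 fold changes and adjusted p-values), none of which supplied a value here except that mark, which chose 1 transcript per gene. Egfl7, Eng and Pecam1 had more than 1 transcript row, with the same or nearly the same counts. One further E13.5 RarαDN library had failed the study's quality control. The numbering of libraries did not pair them. Nothing says that embryos of a group came from separate litters, so p-values measure the spread between these embryos.

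After TMM scaling and a filterByExpr filter on low counts, groups were compared by the robust quasi-likelihood test of edgeR 4.0.16 in R 4.3.3, in 1 fit per age for RarαDN against control and in 1 fit of all 15 libraries for the difference between ages and between controls. P-values were adjusted by Benjamini-Hochberg over all genes tested, with a threshold of 0.05. Each SE is the log2 fold change divided by the root of its F statistic. A fold against a group at 0 used 3 counts over that group. Levels per kilobase used transcript lengths matched for 97.8% of genes. Alternatives were RLE scaling, library totals, no or a stricter filter, DESeq2 1.42.0, limma-voom (limma 3.58.1), no robust step, the transcript with the largest total, a replicate block, all groups in 1 fit, removal of hemoglobin genes or hemoglobin-rich libraries, a threshold of 0.01 and each library left out in turn. On simulated counts the E11.5 fit (12058 genes) called 52.6% of simulated log2 changes of 2 and 84.4% of those of 4, and the E13.5 fit (11648 genes) 55.1% and 72.9%, with false calls at 7.09% and 2.36% of calls. The fit of the difference between ages (13115 genes) called 31% and 69%, with 0.99% false calls.

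The genes and lists were chosen with earlier results of these data known. The text names all 10 genes of the set. Genes it names from the lists are among the up to 3 called genes of lowest adjusted p in each list and age or, where none was called, the 2 of highest mean level, and not all of these are printed. Figures were drawn with matplotlib 3.10.9.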

Additional observations from a re-analysis of the deposited data

Results flagged for a closer look

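Among 21 sets of 4 libraries examined for 1 value far from the rest, 7 had one. Chance gives about 1 in 20 for continuous values, a rate that does not apply to counts at or near 0, so the number of such values is not read as a result. These values were the Kdr level of 1.64 CPM in E11.5 RarαDN library 4 and of 1.34 CPM in E13.5 control library 4, the Cdh5 level of 0.657 CPM in E13.5 control library 3 and the Tie1 level of 1.41 CPM in E11.5 RarαDN library 4. Esam gave the other 3, at 0.917 CPM in E11.5 control library 4, 3.63 CPM in E11.5 RarαDN library 2 and 0.298 CPM in E13.5 control library 2. In each case the other libraries of the group held 0 or 1 count. Whether these counts came from a few other cells in the sort was not tested.

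The effect of RarαDN differed between the E13.5 and E11.5 comparisons by the test of the difference itself for Kdr (10.58 on the log2 scale), Egfl7 (-2.95), Plvap (-4.54) and Pecam1 (5.71), with the adjusted p-values given above. Organ, Cre, reporter and tamoxifen changed with age, so these cannot be told apart.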

How the results depend on the processing

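Of 406 refits of the 5 tested genes, over the 4 comparisons, under another setting or without 1 library, 370 kept their direction and their side of the threshold, 30 lost the call, 6 gained one and 0 reversed. At E11.5 the count of called genes was 5, and it was 2 (Kdr and Eng) with a replicate block, 2 at a threshold of 0.01, and 2 to 5 when each library was left out. At E13.5 the count was 1, and it was 2 with DESeq2, 2 with limma-voom, 0 without the hemoglobin-rich control libraries, 0 at a threshold of 0.01, and 0 to 2 when each library was left out (2 without control library 4, 0 without any 1 RarαDN library). Leaving libraries out also lowers the number of samples. Same-numbered libraries deviated together with correlations of 0.236, -0.196, 0.0727 and 0.0994 at E11.5 and 0.0430, 0.0382 and 0.0457 at E13.5, and not every library correlated best with its own number, so the block follows a number only. Over all genes, the calls at E11.5 were 745, against 1367 with DESeq2, 350 with a replicate block, 269 at a threshold of 0.01 and 324 without control library 1. At E13.5 they were 1007, against 1723 with DESeq2, 649 with all groups in 1 fit, 212 without the hemoglobin-rich controls, 182 at a threshold of 0.01 and 25 without RarαDN library 1. Depth limits Flt1, Cdh5, Tie1 and Esam, for which counts of 0 allow up to 0.242 to 0.477 CPM per library.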
